A study of Mus musculus with 13 samples.

Results

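The translation initiation factor genes were taken as the genes of the filtered count table whose symbols start with Eif1 to Eif6, without pseudogenes. This gave 53 of 17280 genes. Initiation factors bring the initiator tRNA, the small ribosomal subunit and a capped mRNA together, scan to the start codon and join the large subunit. The eIF2 complex carries the initiator tRNA, the eIF3 complex holds the small subunit, and eIF4F binds the cap and unwinds the leader of the mRNA. Microglia are the resident macrophages of the brain, and in these as in other cells initiation is controlled in a pair of known ways. Stress kinases phosphorylate eIF2alpha, which blocks the exchange factor eIF2B, and the 4E-binding proteins withhold the cap-binding protein eIF4E until mTOR phosphorylates them.

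The study examined how microglia respond to high-fat diet (HFD) over days to weeks. Single CD45lo CD11b+ cells of male C57BL/6J mice were sorted into wells and sequenced by CEL-Seq2, which counts molecules at the 3′ ends of transcripts. The GEO samples were 13 plates of 192 wells, and the table of wells gave the diet, the length of HFD and a replicate identifier of each well. Controls received chow, and the other groups received HFD for 1 day, 3 days, 1 week, 4 weeks, 9 weeks or 16 weeks. The labels named no transgene, deletion or drug in any group. The labels gave the tissue as brain, while the study described this set as hypothalamic. Well names on plates 4 to 13 carried a further label of 9, 14 or 24 weeks, whose meaning was not stated and which went with the length of HFD. The 1 day wells carried 9 weeks, the 3 days wells 14, the 9 weeks wells 24, the 1 week wells 9 or 14, the 4 weeks wells 14 outside plate 1 and the 16 weeks wells 24 outside plates 2 and 3, so that label and length cannot be fully told apart across plates. Controls carried each of these labels. The sources used here did not otherwise state the age of the mice or whether an identifier is 1 mouse, so p-values measured the spread between sums, which may be partly technical and in which repeat sums of 1 identifier counted separately.

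Of 2496 wells, 1617 held at least 1500 estimated transcripts. Wells were summed by identifier, length and plate into 68 sums of at least 5 wells, with 22774 to 219199 transcripts each. Controls gave 28 sums of 19 identifiers on 12 plates, 1 day gave 6 sums of 6, 3 days gave 6 of 4, 1 week gave 7 of 5, 4 weeks gave 5 of 3, 9 weeks gave 6 of 2, and 16 weeks gave 10 of 5. Levels are given as CPM, the count per 1000000 transcripts of a sum. Sums of 1 identifier on several plates shared their source. Plate 5 held no usable control, and plate 4 held a single control sum (M26) of 7 wells. All 12 microglia markers passed the filter on low counts, and their summed level was 25430 to 43270 CPM per sum. Border macrophage, monocyte, lymphocyte, neuron, astrocyte, oligodendrocyte and endothelial lists had median sums of 0 to 144 CPM, with a highest sum of 1138 CPM for the monocyte list at 1 week. The neutrophil list, of which only S100a9 was in the table, was at 0 in 54 of 68 sums but reached 12950 CPM in the 4 weeks sum M21 on plate 5, from 991 S100a9 transcripts. Xist, which male cells lack, was at 0 in 49 sums and reached 27 transcripts in the 4 weeks sum M20 on plate 4. Without M20 and M21 the 4 weeks group is the single sum L2 on plate 1, and some of the 4 weeks results are also given without them.

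Together the 53 genes made up a mean of 0.468% of the transcripts of a sum over the 68 sums, and the typical well showed few of them. The median well held 13 initiation factor transcripts from 10 of the genes, and every well held at least 1. Eif1, whose product keeps the scanning ribosome from starting at poor start codons, had the highest mean level in control sums (357 CPM ± 103, SD, n = 28 sums) and was seen in 60.5% of control wells. Eif5b, the GTPase that joins the large subunit, followed at 295 CPM ± 113. Eif4g2, a cap-independent relative of the scaffold eIF4G, was at 287 CPM ± 77.1. Next came Eif3a, the largest eIF3 subunit, at 226 CPM ± 94.4, Eif4g3, a second eIF4G scaffold, at 218 CPM ± 80.5, and the helicase Eif4a1 at 216 CPM ± 76.9. Eif5, which triggers GTP hydrolysis on eIF2, was at 192 CPM ± 76.1. Neighbours in this order lay within an SD of each other. Since CEL-Seq2 tags each molecule once at its 3′ end, these levels do not scale with transcript length, though genes can still differ in how well their 3′ ends are captured. Eif1 was the highest initiation factor gene in 34 of 68 sums, Eif5b in 14 and Eif4g2 in 13.

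**Figure D1:**
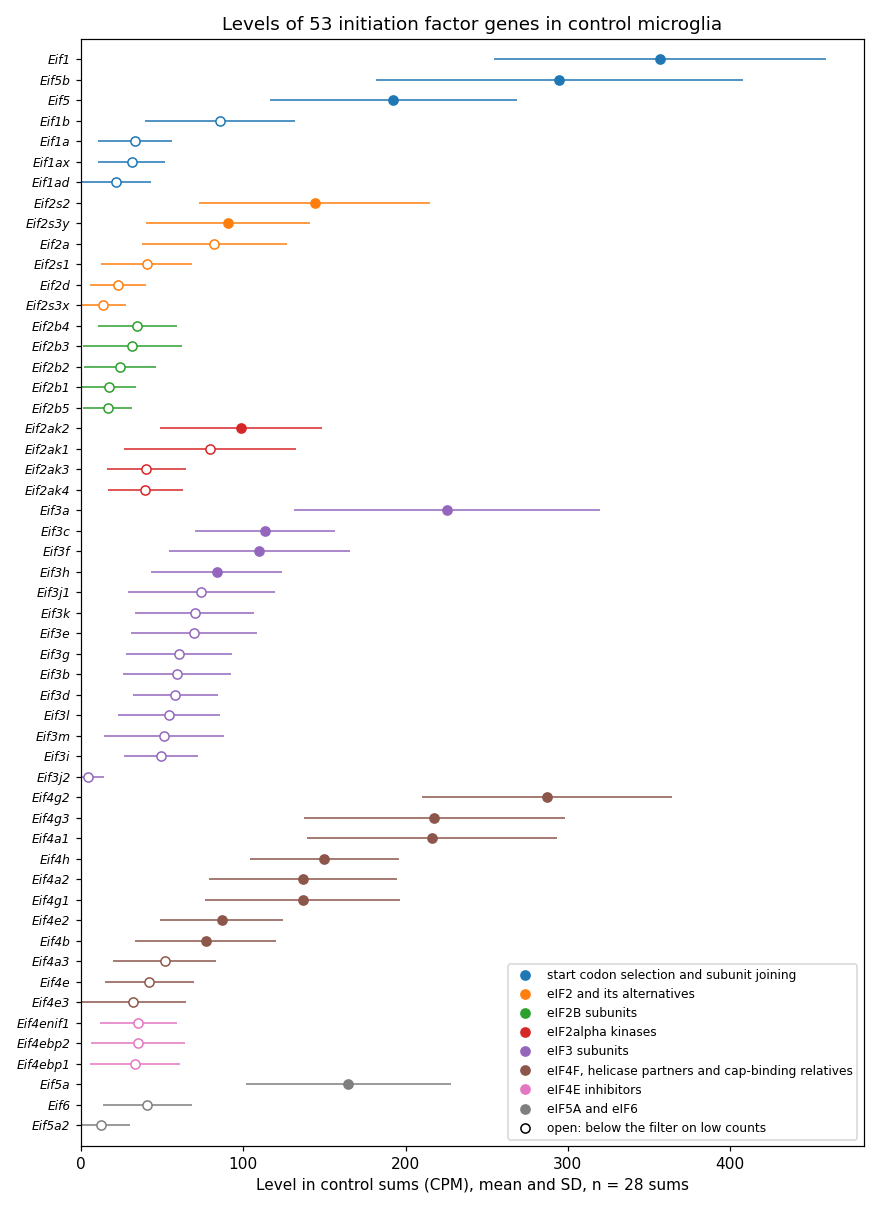
Mean level of each of the 53 genes over the 28 control sums in CPM (horizontal axis), with the SD as a bar, grouped by role (colour); open symbols are genes below the filter on low counts. Eif1, Eif5b and Eif4g2 lie at 287 to 357 CPM, and most genes lie under 100.

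By role, the levels were uneven. The 11 genes of eIF4F, its helicase partners and cap-binding relatives held 31.0% of the initiation factor transcripts of control sums (1433 CPM ± 212). The 14 eIF3 subunit genes held 23.4% (1082 CPM ± 195), and the 7 genes of start codon selection and subunit joining were at 1015 CPM ± 176. The eIF2 subunits and alternatives (6 genes) were at 393 CPM ± 77.7 and the 4 eIF2alpha kinases at 257 CPM ± 88.8. The lowest role totals, which depend on the number of genes, were 124 CPM ± 48.5 over the 5 subunits of eIF2B and 103 CPM ± 50.2 over the 3 eIF4E inhibitors Eif4ebp1, Eif4ebp2 and Eif4enif1. The cap-binding protein itself, Eif4e, had a mean of 41.8 CPM over all 68 sums, below its relative Eif4e2 (86.8 CPM), which was higher in 55 of 68 sums. Eif5a and Eif6, with Eif5a2, made up the remaining 218 CPM ± 74.2.

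Some pairs of closely related genes differed in level in most sums, and others did not. The gamma subunit of eIF2 has a copy on each sex chromosome. Eif2s3y (chromosome Y, 1010543 to 1028847, GRCm38) had 92.8 CPM ± 47.0 and Eif2s3x (chromosome X, 94188707 to 94212862) had 14.9 CPM ± 16.5 over the 68 sums. The Y copy was higher in 64 sums, the X copy in 2, and they were equal in 2. Eif2s3y was at 0 in 3 sums and Eif2s3x in 28. Eif1 exceeded Eif1b in 68 of 68 sums, with a ratio of total transcripts of 4.78. The hypusine-carrying factor Eif5a exceeded Eif5a2 in 67 sums (ratio 19.3), and the eIF3 subunit Eif3j1 exceeded Eif3j2 in 63 (ratio 13.6). The helicases were closer, with Eif4a1 at 212 CPM ± 70.9 and Eif4a2 at 158 CPM ± 61.7, the first higher in 46 sums and the second in 22. Eif1a (37.7 CPM) was higher than Eif1ax (28.5 CPM) in 34 sums and lower in 23. Eif4ebp1 (34.9 CPM) was higher than Eif4ebp2 (33.4 CPM) in 32 sums and lower in 27. Eif4g3 (215 CPM) was higher than the scaffold Eif4g1 (134 CPM) in 54 of 68 sums. Reads of near-identical copies can be split or lost in counting, so such ratios are uncertain. The annotation also lists 10 pseudogenes named after initiation factors, 3 of them after Eif1.

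**Figure D2:**
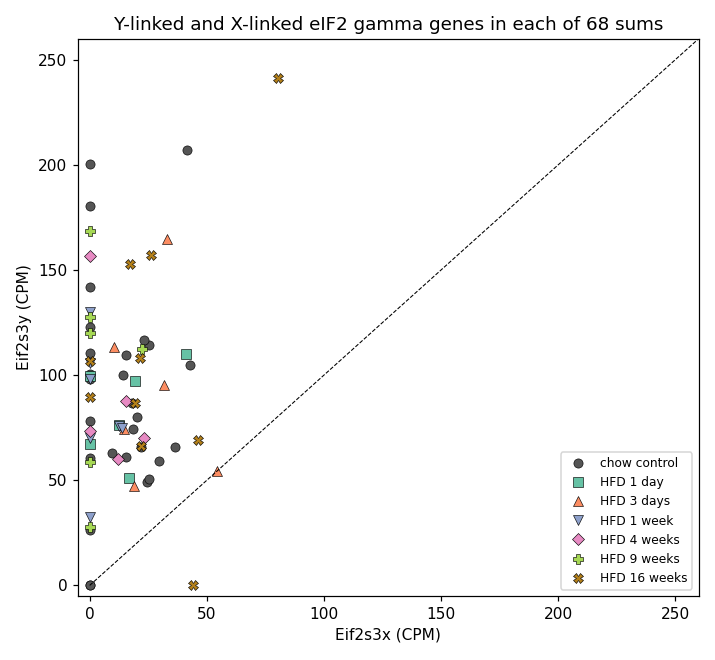
Level of Eif2s3x (horizontal axis) and Eif2s3y (vertical axis) in CPM in each of the 68 sums, coloured by diet and length of HFD; the dashed line marks equal levels. The Y-linked gene is higher in 64 of 68 sums.

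The first comparison asked whether the summed level moved with HFD. In control sums it was 4625 CPM ± 322 (lowest 3858, median 4620, highest 5350). Its medians were 4870 at 1 day, 4809 at 3 days, 4815 at 1 week, 4900 at 4 weeks, 4422 at 9 weeks and 4706 at 16 weeks. The ranges of all groups overlapped that of the controls. The highest sum was 5999 CPM, in the 9 weeks identifier M8 on plate 12, which had 4507 and 4619 CPM on plates 10 and 11. The lowest was 3733 CPM, in the 16 weeks identifier M10 on plate 13. Counting error alone would give an SD of 286 CPM over the control sums, against the 322 observed.

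Because plates differ, lengths were compared with controls on the same plate. At 1 day the mean of the plate differences was 207.5 CPM (4.43% of the control mean), positive on 2 of 2 plates, with 6 of 6 HFD sums above the mean of their plate's controls. The sums of both diets overlapped on both plates, and the mean was 90.4 CPM without the control M15 and 317 CPM without the control M11. At 3 days the mean was 402.5 CPM (9.23%), from −12.8 on plate 4 and 818 on plate 13. At 1 week it was 35.6 CPM (0.777%) over 4 plates, from −272 to 560, and it ran from −139 to 138 CPM with 1 identifier left out. At 4 weeks it was 302 CPM (6.72%), from −212 on plate 1 and 817 on plate 4, and without M20 and M21 the value of plate 1 alone was left. At 9 weeks it was 19.2 CPM (0.413%) over 3 plates, with 1 of 6 HFD sums above the control mean, and it was 396 CPM without M7 and −357 CPM without M8. At 16 weeks it was −87.5 CPM (−1.88%) over 6 plates, 3 of them positive, from −744 to 331, and −183 to 8.09 CPM with 1 identifier left out. On plates with at least 2 sums of each diet, the ranges did not overlap at 3 days on plate 13 (5122 to 5247 against 3858 to 4794 CPM in controls), at 16 weeks on plate 10 (3905 to 3951 against 4387 to 5173) and at 16 weeks on plate 11 (4877 to 5019 against 4449 to 4861), the 2 at 16 weeks in opposite directions. The SD of the plate differences was 132 CPM at 1 day, 587 at 3 days, 379 at 1 week, 728 at 4 weeks, 498 at 9 weeks and 408 at 16 weeks, larger than the size of the mean at each length except 1 day, which rests on 2 plates. The 3 days mean was 141 CPM without Eif1 and 280 CPM with plate 13 split by week label. The sum of a chosen list is given without a test. Split by role, the mean plate differences at 3 days were 262 CPM for start codon selection and joining, the same as for Eif1 alone (262 CPM), 147 CPM for eIF2 and its alternatives, 112 CPM for eIF4F and its partners and −92.4 CPM for eIF3, with the other roles between −37.5 and 11.6 CPM. The eIF2alpha kinases were at −117 CPM (−41.3%) at 9 weeks and between −49.9 and 9.86 CPM at the other lengths. Eif2ak2 alone was at −51.0 CPM at 9 weeks. Other roles had larger relative differences. These were eIF2 and its alternatives at 3 days (47.3%) and 4 weeks (53.3%) and the eIF4E inhibitors at 1 week (49.7%). The role differences are given without a spread or a test.

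**Figure D3:**
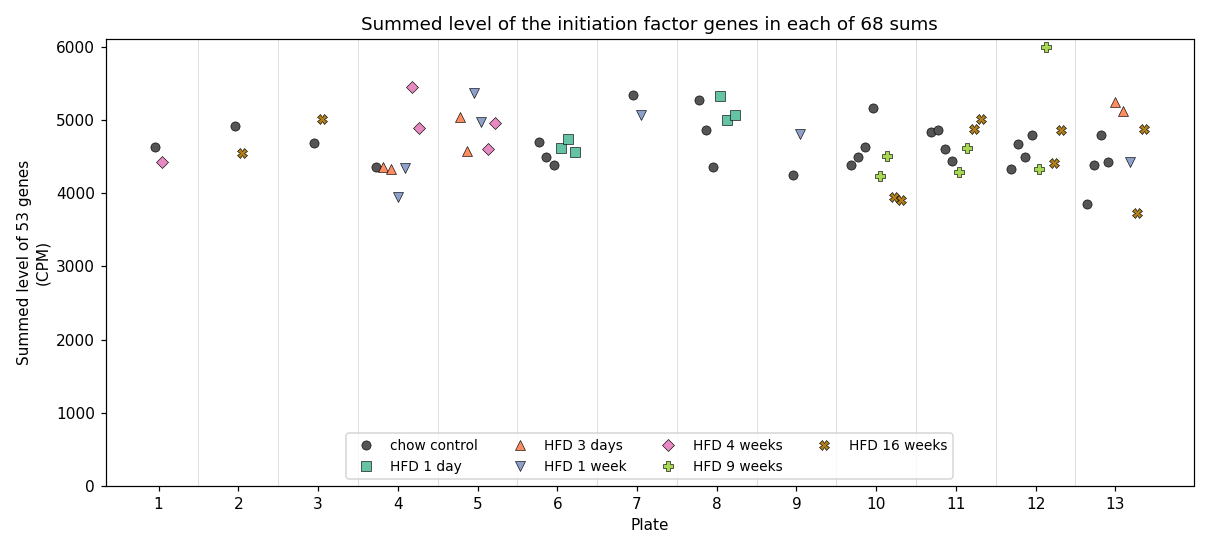
Summed level of the 53 genes in CPM (vertical axis) in each of the 68 sums, by plate (horizontal axis); symbols and colours mark diet and length of HFD. Sums lie between 3733 and 5999 CPM, and HFD and control sums overlap at each length on plates 6, 8 and 12.

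The second comparison tested each gene. After the filter on low counts 19 of the 53 genes were tested among 2336 genes, in 1 edgeR quasi-likelihood fit with plate as a block. None of the 19 passed an adjusted p of 0.05 at any length. Across all genes the share called was 0% at each of 1 day, 3 days, 1 week, 4 weeks, 9 weeks and 16 weeks, and 0% for any length in an F test of all length terms. The smallest adjusted p of an initiation factor gene was 0.738 (edgeR). At an unadjusted p under 0.05, edgeR found 4 of 114 gene and length pairs, or 3.51%, against 4.82% over all genes. The tally was higher at 3 days in the fit without plates 4 and 5. There 6 of 26 tested genes (Eif1, Eif3c, Eif3j1, Eif3k, Eif4a2 and Eif4g2) had an unadjusted p under 0.05, beside 230 of 3760 genes, and 0 were called. In that fit it was 1 to 2 of 26 at 1 day, 1 week, 9 weeks and 16 weeks. DESeq2 called 0 of the 19 at each length, beside 0 to 1 of 2336 genes, with the same 4 pairs at an unadjusted p under 0.05, and limma voom called 0, beside 0 to 1 of 2336 genes, with Eif5 at 4 weeks and Eif2s2 at 16 weeks at an unadjusted p under 0.05. Of the 114 log2 fold changes, 106 were smaller than 0.5 in size and 2 were larger than 1. Their median SE was 0.22 at 16 weeks and 0.28 to 0.34 at the other lengths, so small changes were not detectable at this depth. The median log2 fold change of the 19 was 0.00 at 1 day, 0.09 at 3 days, 0.12 at 1 week, 0.09 at 4 weeks, 0.02 at 9 weeks and −0.08 at 16 weeks, beside medians of −0.01 to 0.01 over all genes. At 4 weeks 15 of 19 were positive, beside 51% of all genes, and without M20 and M21 11 of 19 were, with a median of 0.05. At the other lengths 8 to 10 were positive, where 48.4% to 50.6% of all genes were positive.

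**Figure D4:**
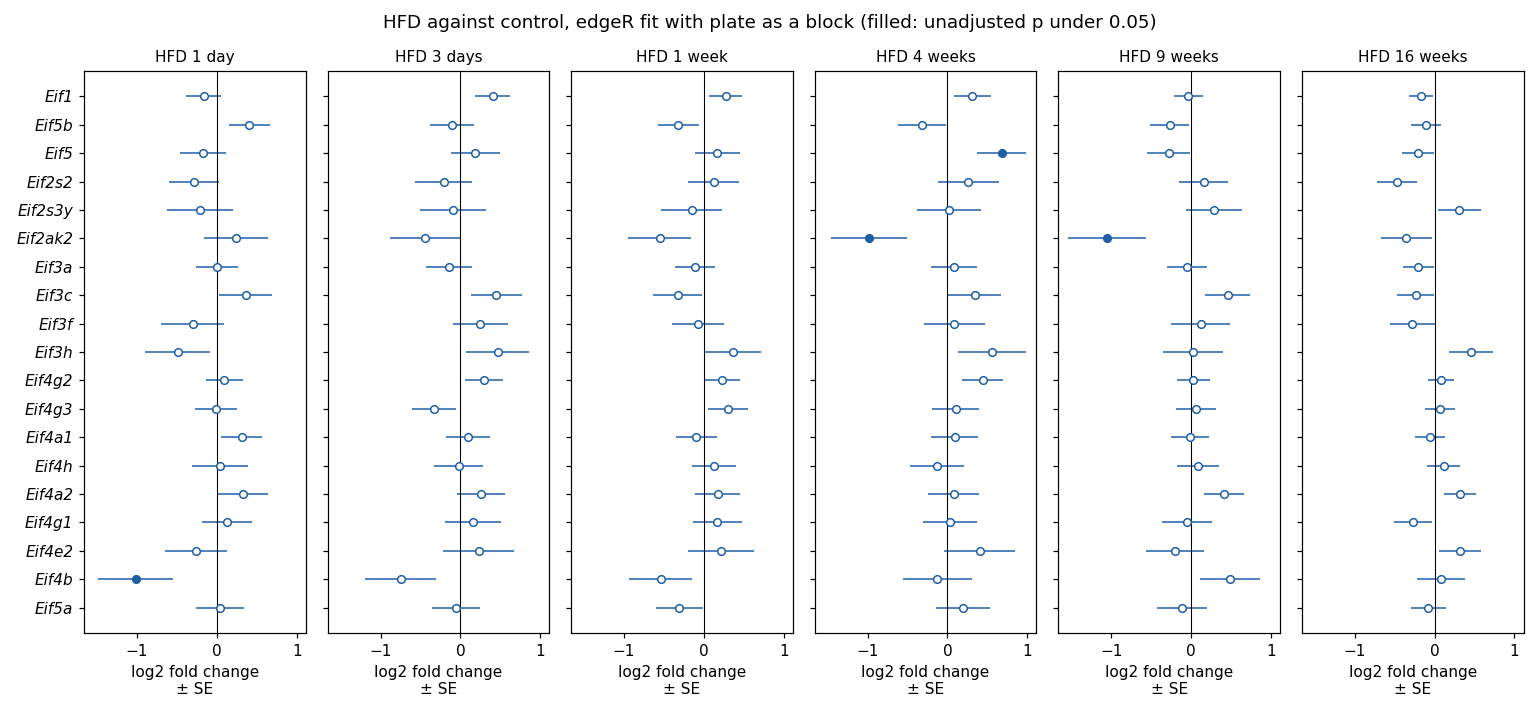
Log2 fold change of HFD against control (horizontal axis) with its SE for the 19 tested genes, one panel per length; filled points have an unadjusted p under 0.05. Most points lie within 0.5 of 0, and the filled ones are Eif4b at 1 day, Eif5 at 4 weeks and Eif2ak2 at 4 weeks and 9 weeks, all with adjusted p of 0.738 or more in edgeR.

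Eif1 (ENSMUSG00000035530, chromosome 11, 100319885 to 100322096, GRCm38) had its highest median at 3 days. Control sums ran from 67.0 to 575 CPM with a median of 354. At 1 day the sums ran from 202 to 455 (median 295), at 3 days from 296.5 to 556 (median 435), and at 1 week from 291 to 635 (median 402). At 4 weeks they were 278, 458, 368, 561.5 and 327 CPM. At 9 weeks the sums ran from 256 to 539 (median 413), and at 16 weeks from 209 to 446 (median 335). All ranges overlapped the controls. In edgeR the log2 fold change was −0.17 ± 0.22 (SE) at 1 day, 0.40 ± 0.21 at 3 days, 0.27 ± 0.20 at 1 week, 0.31 ± 0.23 at 4 weeks, −0.03 ± 0.18 at 9 weeks and −0.18 ± 0.15 at 16 weeks, with adjusted p of 0.982 or more.

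The 3 days value of Eif1 depended on which sums stood for the controls. On plate 4 the 3 days sums M24 and M25 had 392 and 360 CPM, and the only control sum, M26, had 67.0 CPM from 2 transcripts. On plate 13 the 3 days sums had 556 and 477 CPM, above the 4 controls at 304, 143, 304 and 455.5 CPM. Plate 5 held 3 days sums of 491 and 296.5 CPM beside 1 week sums of 492 and 635 CPM, with no control. In a fit of only the 3 days and control sums of plates 4 and 13, in which 661 genes were tested, the log2 fold change at 3 days was 0.99 ± 0.31 (adjusted p = 0.289, edgeR). Fitted without plates 4 and 5 it was 0.87, without M26 it was 0.25, and without the 3 days identifier M17 it was 0.24, none with an adjusted p under 0.05. The controls of plate 13 carried 2 different week labels in their well names, and with the plate split by that label the value was 0.21 (adjusted p = 0.999, edgeR). Values of 1 week and 4 weeks on plate 4 rest on the same control sum. Without plates 4 and 5 Eif1 had a log2 fold change of −0.08 at 1 week and −0.16 at 4 weeks, and without M20 and M21 one of −0.16 at 4 weeks.

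**Figure D5:**
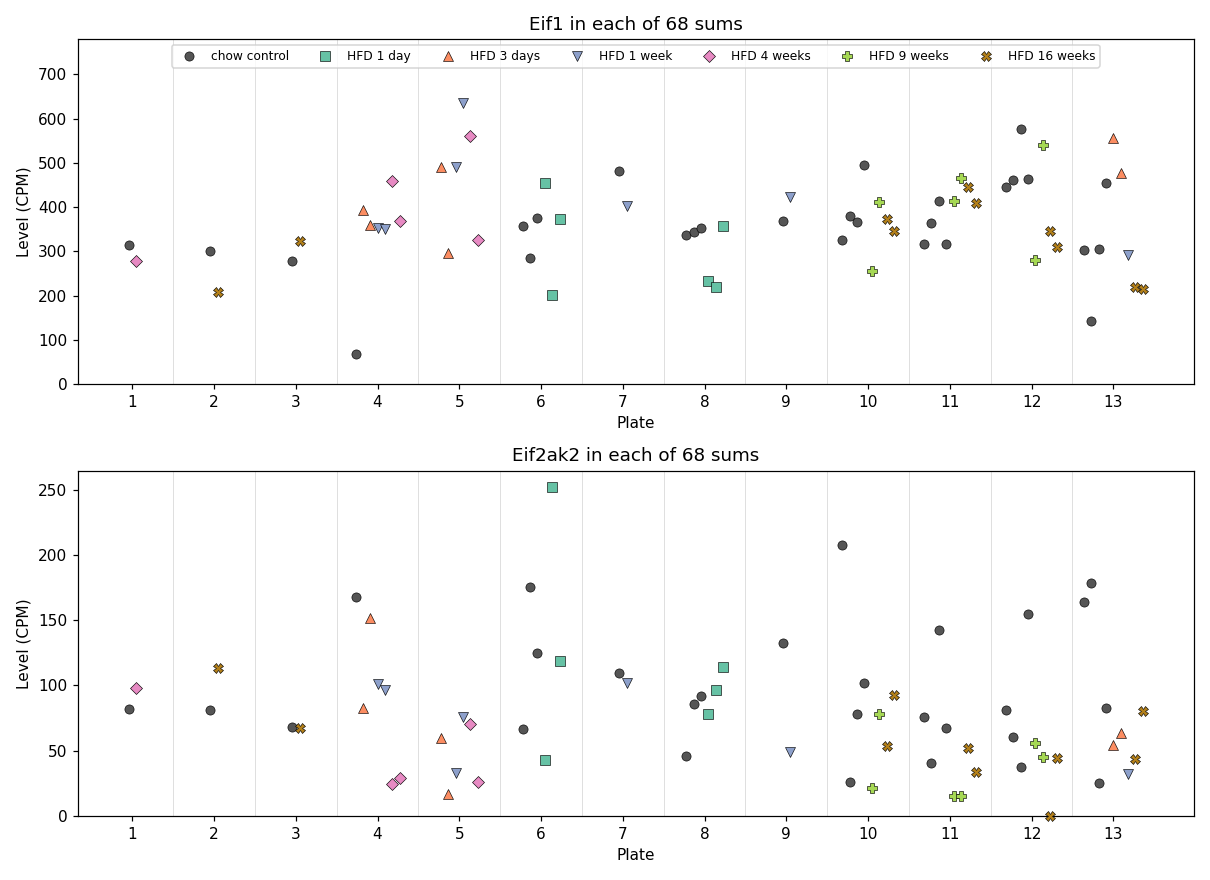
Level of Eif1 (upper panel) and Eif2ak2 (lower panel) in CPM (vertical axes) in each of the 68 sums, by plate (horizontal axis), with diet and length of HFD as symbols. On plate 4 the lone control sum has 67.0 CPM of Eif1, below the HFD sums of that plate, and the 9 weeks sums of Eif2ak2 on plates 10 to 12 lie between 15.0 and 78.4 CPM.

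With plates pooled, the ranges of the other highly expressed genes overlapped those of the controls at every length. Within single plates they did not always. On plate 13 the 3 days sums of Eif4g2 (407 and 461 CPM) lay above the controls (107 to 331 CPM). On plate 10 the 9 weeks sums of Eif5 (63.9 and 98.0 CPM) lay below the controls (114 to 356 CPM). Eif4g2 had a control median of 285 CPM and medians of 332 at 1 day, 332 at 3 days, 293 at 1 week, 253 at 4 weeks, 313.5 at 9 weeks and 311 at 16 weeks, with a single high sum of 680 CPM in the 4 weeks identifier M21 on plate 5. That sum is the one with 991 S100a9 transcripts, and their part in its level was not tested. Eif5b had a control median of 315 CPM and medians of 297, 227, 229, 191, 246 and 268.5 CPM in the same order of lengths. Its log2 fold change in edgeR was 0.41 at 1 day and between −0.32 and −0.11 at the later lengths. Eif4g3 had a control median of 205 CPM and medians of 245, 139, 253, 205, 219 and 221 CPM in that order. For the core eIF3 subunit Eif3a the control median was 219.5 CPM, and the medians were 244, 176, 211, 235, 197 and 180.3 CPM. The helicase Eif4a1 had 222.5 CPM in controls and medians of 260, 183.5, 177, 205, 210 and 244 CPM. Eif5 had a control median of 183 CPM and medians of 178, 161, 162, 217, 165 and 191 CPM. All these medians pool the plates and can differ in direction from the comparison within plates. Eif5 at 16 weeks was below the control mean on 6 of 6 plates (mean −30.1 CPM). Eif4a1 at 1 week was above it on 4 of 4 plates (mean 28.8 CPM). None of these genes had an order of levels that followed the length of HFD.

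Eif2ak2, which encodes the double-stranded RNA sensor kinase PKR, had the largest fold change among the 19 genes. It is described with Eif4b and Eif5 because their unadjusted p was under 0.05, and was thus chosen after values were seen. Control sums of Eif2ak2 (chromosome 17, 78852564 to 78882573) ran from 25.4 to 207.5 CPM with a median of 82.6. The 9 weeks sums ran from 15.0 to 78.4 CPM (median 33.1), from 1 to 4 transcripts each, and the 4 weeks sums were 97.8, 24.1, 29.4, 70.2 and 26.1 CPM. The medians were 105.5 CPM at 1 day, 61.5 at 3 days, 75.6 at 1 week and 52.9 at 16 weeks. On each of plates 10, 11 and 12 the 9 weeks mean was below the control mean, by a mean of 51.0 CPM over the 3 plates, and the sums did not overlap on plate 11. Its mean was also below the control mean on 2 of 2 plates at 3 days and 4 of 4 at 1 week. At 4 weeks it was below on 1 of 2 plates and at 16 weeks on 5 of 6. At 1 day it was above on 2 of 2 plates, and several of these lengths share control sums. On plate 6 the 1 day mean rests on the sum M6 at 252 CPM. The other 1 day sums there were 42.7 and 119 CPM, below the control mean of 122 CPM. In edgeR the log2 fold change was −1.05 ± 0.49 (SE) at 9 weeks (unadjusted p = 0.0339, adjusted p = 0.738) and −0.98 ± 0.47 at 4 weeks (adjusted p = 0.997). The 9 weeks sums came from 2 identifiers, each on 3 plates, and limma voom with the identifier gave −0.76 at 9 weeks (unadjusted p = 0.154, adjusted p = 0.913). Without M20 and M21 the 4 weeks value was 0.26, from the single sum of plate 1. It was −2.04 without the plate 1 identifier L2 and −2.03 without its control L1. At 9 weeks it was −0.81 without M7. The F test over all lengths gave an adjusted p of 0.943 (edgeR).

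Eif4b, the cofactor that stimulates the helicase eIF4A, had its lowest log2 fold change at 1 day. Its 1 day sums were 99.5, 50.4 and 16.96 CPM on plate 6 and 38.9, 27.6 and 38.2 CPM on plate 8. The controls were 66.8, 131.5 and 31.2 CPM on plate 6 and 107, 172 and 46.0 CPM on plate 8. The groups overlapped on plate 6 and not on plate 8. The log2 fold change in edgeR was −1.02 ± 0.47 (unadjusted p = 0.0335, adjusted p = 0.976). It was −0.75 ± 0.44 at 3 days, −0.54 ± 0.40 at 1 week, −0.13 ± 0.44 at 4 weeks, 0.48 ± 0.37 at 9 weeks and 0.08 ± 0.30 at 16 weeks, with adjusted p of 0.898 or more. Without M20 and M21 the 4 weeks value was −1.67, from the single sum L2 on plate 1, which held 3 Eif4b transcripts. On plate 12 the 9 weeks sums (135 and 140 CPM) and the 16 weeks sums (130 and 133 CPM) lay above the controls, which ran from 25.8 to 81.0 CPM. For Eif5 the 4 weeks sums were 237, 217, 324, 210.5 and 196 CPM. The control sums were 198.5 CPM on plate 1 and 134 CPM on plate 4, the latter from 4 transcripts of M26. The 4 weeks sums of 210.5 and 196 CPM are on plate 5, which held no usable control. The log2 fold change was 0.68 ± 0.31 (adjusted p = 0.997, edgeR), and 0.27 both without plates 4 and 5 and without M20 and M21.

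The remaining tested genes stayed within 0.56 in log2 fold change. Those of eIF2 were the beta subunit Eif2s2, from −0.47 at 16 weeks to 0.26 at 4 weeks, and Eif2s3y, from −0.21 to 0.31. Mean plate differences of Eif2s2 were negative on 6 of 6 plates at 16 weeks and positive on 4 of 4 at 1 week. For the eIF3 subunits Eif3c, Eif3f and Eif3h the values ran from −0.49 (Eif3h at 1 day) to 0.56 (Eif3h at 4 weeks). Without M20 and M21 the 4 weeks values were 0.10 for Eif3h, −1.09 for Eif2s2, −0.51 for Eif4a2 and −0.54 for Eif5a (adjusted p of 1 for each, edgeR). Among cap-binding and helicase genes Eif4a2, Eif4e2, Eif4g1 and Eif4h ran from −0.27 to 0.41. Eif5a ran from −0.31 to 0.19. The 34 genes below the filter had mean levels of 4.96 CPM (Eif3j2) to 86.5 CPM (Eif2a) and were seen in 1.48% to 21.2% of wells. They include each eIF2B subunit, the kinases Eif2ak1, Eif2ak3 and Eif2ak4, the eIF2alpha gene Eif2s1, Eif4e and the 4E-binding protein genes, and they were outside the main test. With a loose filter all 53 genes were tested among 15003, and 0 of the 53 were called at each length, beside 0 to 12 of all genes (at most 0.08%). At an unadjusted p under 0.05 edgeR then found 1 to 4 of the 53 per length, among them Eif2s1 at 1 day, 3 days and 4 weeks, beside 743 to 923 of all genes.

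A further test asked how far the genes varied between plates. Across all genes 19.2% differed between plates (449 of 2336, edgeR F test), and 0 of the 19 initiation factor genes did. Of the 19, 4 had an unadjusted p under 0.05 (Eif3a, Eif3f, Eif4b and Eif4g1), and the smallest adjusted p was 0.0986 for Eif4b (edgeR). Plate means of the summed level in controls had an SD of 293 CPM, beside 308 CPM between sums within plates. For the cytosolic ribosomal proteins the same values were 7542 and 2035 CPM, and 67 of 72 tested genes (93.1%) were called between plates. The ribosomal level ran from 8932 to 48870 CPM, while the summed initiation factors ran from 3733 to 5999. Without plates 4 and 5, 1 of 26 tested initiation factor genes (Eif3a) was called between plates, beside 12.1% of all genes, so the count of 0 was not fixed.

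The neighbouring steps of translation gave the same count for HFD. Of 14 elongation and termination factor genes 6 were tested, and 0 were called at any length. Of 19 other initiation helpers and mTOR targets 11 were tested, and 0 were called. Ddx3x, a helicase that aids scanning, had a log2 fold change of −0.93 at 3 days (adjusted p = 0.723), −0.65 at 1 week (adjusted p = 0.999) and −0.94 at 4 weeks (adjusted p = 0.645, edgeR throughout). It was chosen from the 11 after values were seen, and its other lengths are not given. At each of these lengths the plate 4 comparison rests on the control sum M26, and the 4 weeks value includes M20 and M21. Of 12 integrated stress response targets, genes downstream of eIF2alpha phosphorylation, 3 were tested (Atf4, Ppp1r15b and Sqstm1) and 0 were called. Of 16 immediate early genes, which many stimuli induce quickly, 8 were tested and 0 were called by HFD. Beside 19.2% of all genes, those called between plates were 3 of 6 elongation and termination factors, 4 of 11 helpers and mTOR targets, 1 of 3 stress response targets and 7 of 8 immediate early genes. No cytosolic ribosomal protein gene was called at any length.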

How the data were processed

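Per the labels and the study's methods, reads were aligned with STAR to mm10 and counted per gene with featureCounts, and the authors deposited estimated counts, that is UMIs corrected for the limited number of barcodes, for each well. The authors' filtered table served only as a list of gene symbols, and its 843 columns of wells were not used. Wells with at least 1500 transcripts were summed by replicate identifier, length and plate, 1 sum of 4 wells was left out, and sums were rounded. Plates shared 0 well names. The fit used edgeR 4.0.16 (TMM, filterByExpr, quasi-likelihood F test, plate and length, Benjamini-Hochberg over 2336 genes). DESeq2 1.42.0 and limma 3.58.1 served as alternatives. The edgeR script was tested on simulated data. Wells labelled 7 days and 1 week were joined. Every gene past the filter was named, and values in every group were given for Eif1 and the 6 next highest genes. Members, lists and tests were chosen with earlier results of these data known. Gene positions come from GENCODE M21. Intervals cover counting error and spread between sums, and depth limits single genes to a median of 4 to 23.5 transcripts per control sum.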

Additional observations from a re-analysis of the deposited data

Results flagged for a closer look

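For the summed level and 9 genes, the mean of each replicate identifier was compared with the others of its group in 40 groups of 4 to 6 identifiers. A single value stood far from the rest, where chance gives about 1 in 20 groups. Eif2ak2 in the 1 day identifier M6 on plate 6 was at 252 CPM, and the other 5 identifiers of that group lay between 42.7 and 119 CPM.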

How the results depend on the processing

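No initiation factor gene was called by length of HFD in any of 13 alternatives (other size factors, DESeq2, limma voom with the identifier, other filters, well minimums or sums, UMIs, separate fits, no plate block, without plates 4 and 5, plate 13 split, without M20 and M21) or when any of 44 identifiers was left out. Over all genes the fit without the plate block called at most 1.24% per length and the other alternatives at most 0.28%, so the count of 0 lies near the share of all genes. The plate 13 split and the removal of M20 and M21 were chosen after seeing the data. Between plates the count of 0 of 19 became 2 of 53 tested with the loose filter (Eif3a and Eif4g1), beside 6.9% of all genes, 1 of 38 with sums per length and plate (Eif4b), beside 9.54%, 1 of 22 with wells of 1000 transcripts (Eif4g1), beside 19.1%, and 1 of 26 without plates 4 and 5 (Eif3a), beside 12.1%, and ran from 0 to 1 when identifiers were left out. The summed level at 3 days was 818 CPM above control without plates 4 and 5, 141 CPM without Eif1, 280 CPM with plate 13 split, and 318 to 818 CPM with 1 identifier left out. At 4 weeks it was −212 CPM without plates 4 and 5 and without M20 and M21, and −212 to 817 CPM with 1 identifier left out. At 9 weeks leaving out 1 identifier gave −357 (M8) to 396 CPM (M7). Eif1 turned direction at 9 weeks without the plate block (0.12) and with 1 identifier left out (−0.27 to 0.17), at 1 week without plates 4 and 5 (−0.076), and at 4 weeks without plates 4 and 5 (−0.16) and without M20 and M21 (−0.16). Eif2ak2 at 4 weeks turned to 0.26 in both of these. The cause was not tested. Of 451 recomputed counts and fold changes, 438 kept their direction and call. Of 112 recomputed summed levels, 16 had the opposite direction, 3 of 9 alternatives and 4 of 12 fits without an identifier at 1 week, 2 of 9 and 1 of 5 at 4 weeks, 1 of 9 and 3 of 6 at 9 weeks, and 1 of 9 and 1 of 14 at 16 weeks. Plate was the block of the comparisons, and the fit without it called 0 of the 19 initiation factor genes at each length, beside 0 to 29 of 2336 genes. The replicate numbers of the GEO samples number the plates, so a block by them is the same as the plate block of the main fit.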
